A study of Mus musculus with 6 samples.

Results

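Type I collagen is the main protein of bone, and the 34 genes described here encode its chains, the collagens that copolymerise with it, and the machinery that folds, modifies, exports, trims and crosslinks it. They were listed by name for their part in the pathway, with earlier results of these data known. All 34 were found among the 24346 gene names of each library, and all 34 had a mean of at least 1 FPKM (fragment counts divided by transcript length and by the library's mapped fragments), the level required for testing. The libraries came from the calvaria, or skull roof, of newborn mice, taken with the interparietal and occipital bone and without the cartilage of the ear. There were 3 controls (Pth1rfl/fl, with floxed alleles of the parathyroid hormone 1 receptor gene) and 3 libraries labelled mutant (Prx1-Cre;Pth1rfl/fl), in which the same floxed alleles are joined by a Cre transgene under the Prx1 promoter, active in limb bud and part of the skull mesenchyme but not in every cell of the tissue. The controls carry no Cre, so the transgene itself also differs between the groups. Nothing in the labels says whether libraries of a group come from separate animals, so p-values measure the spread between these libraries, which may be technical.

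Fibrillar collagen starts as procollagen chains that are hydroxylated on proline and lysine in the endoplasmic reticulum and wind into a helix with the help of dedicated chaperones. After export, proteases remove the propeptides, the molecules assemble into fibrils, and lysyl oxidases convert lysine side chains into the aldehydes from which crosslinks form. In bone this matrix is laid down by osteoblasts, and defects in many of these genes are known causes of brittle bone disease.

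The targeted gene went against the labels, for Pth1r was at 89.2, 93.3 and 102 FPKM among controls but at 127, 125 and 142 FPKM in the libraries labelled mutant. Its groups did not overlap and its difference did not pass (limma, Benjamini-Hochberg adjusted p = 0.065). The sources used here do not name the exons that the floxed alleles lose, and directions below follow the labels alone. Relative sequencing depth, read from the steps of the lowest values, ran from 0.703 to 1 with control 1 set to 1, and absolute depth is unknown. Marker genes were summed by lists, which were chosen with earlier results of these data known. For osteoblasts the sums were 3416 to 4060 FPKM in controls and 5040 to 6437 FPKM in libraries labelled mutant (1 of 9 genes rose, none fell). Spp1 and Ibsp make up most of the osteoblast sum, and its genes did not all go one way. Of the 9 genes, 8 had groups apart, against 16.1% of all tested genes, and 6 of these were higher. Their ratios were 1.51 for Spp1, 1.93 for Ibsp, 1.21 for Runx2, 1.41 for Alpl, 1.38 for Dmp1 and 1.35 for Phex. Bglap and Bglap2 were lower, with ratios of 0.381 and 0.387, and Sp7 overlapped at 1.08. The next sums were 885 to 1700 and 452 to 568 FPKM for chondrocytes (2 of 8 genes fell, none rose), and 583 to 654 and 1597 to 1743 FPKM for osteoclasts (6 of 7 rose, none fell). For tendon and loose fibroblasts the sums overlapped (561 to 642 and 514 to 565 FPKM, 0 of 8 genes past the threshold), as they did for skeletal muscle and red cells. The endothelial sums were apart (170 to 177 and 199 to 204 FPKM, 1 of 5 genes rose, none fell). The skin keratin genes Krt5 and Krt14 were at or near 0 in all libraries. Of 5 keratinocyte genes only 1 was tested, Krt10, at 1.83 ± 0.0541 and 1.40 ± 0.226 FPKM (SD, n = 3 each). Its groups were apart, lower in libraries labelled mutant, and it did not pass (limma, Benjamini-Hochberg adjusted p = 0.513). Krt1 reached at most 0.328 FPKM and Dsp 0.412 FPKM, Dsp also lower with groups apart.

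None of the 34 genes passed the test between the groups (limma on log2(FPKM + 1), Benjamini-Hochberg adjustment over 13180 genes, threshold 0.05), where 0.607% of all tested genes did. At an unadjusted p under 0.05 there were 2 higher and 3 lower members, 14.7% of the 34, against 10.5% of all tested genes. Under other settings of limma the count of members that passed was 1 with robust eBayes and 1 with array weights, Loxl4 in both, and 0 with the rest. The 5 members at an unadjusted p under 0.05 were Loxl4 and Col24a1 on the higher side and Loxl3, P4ha3 and Col14a1 on the lower side. The same 5 were the members whose groups did not overlap, again 14.7% against 16.1% of all tested genes, so the members' shares lay near the background. Their median log2 difference was -0.0039, against 0.0015 over all genes tested, with 15 members above 0 and 19 below. The ratio of group means lay between 1/1.2 and 1.2 for 30 of the 34, or 88.2%, against 84.9% of all tested genes.

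**Figure D1:**
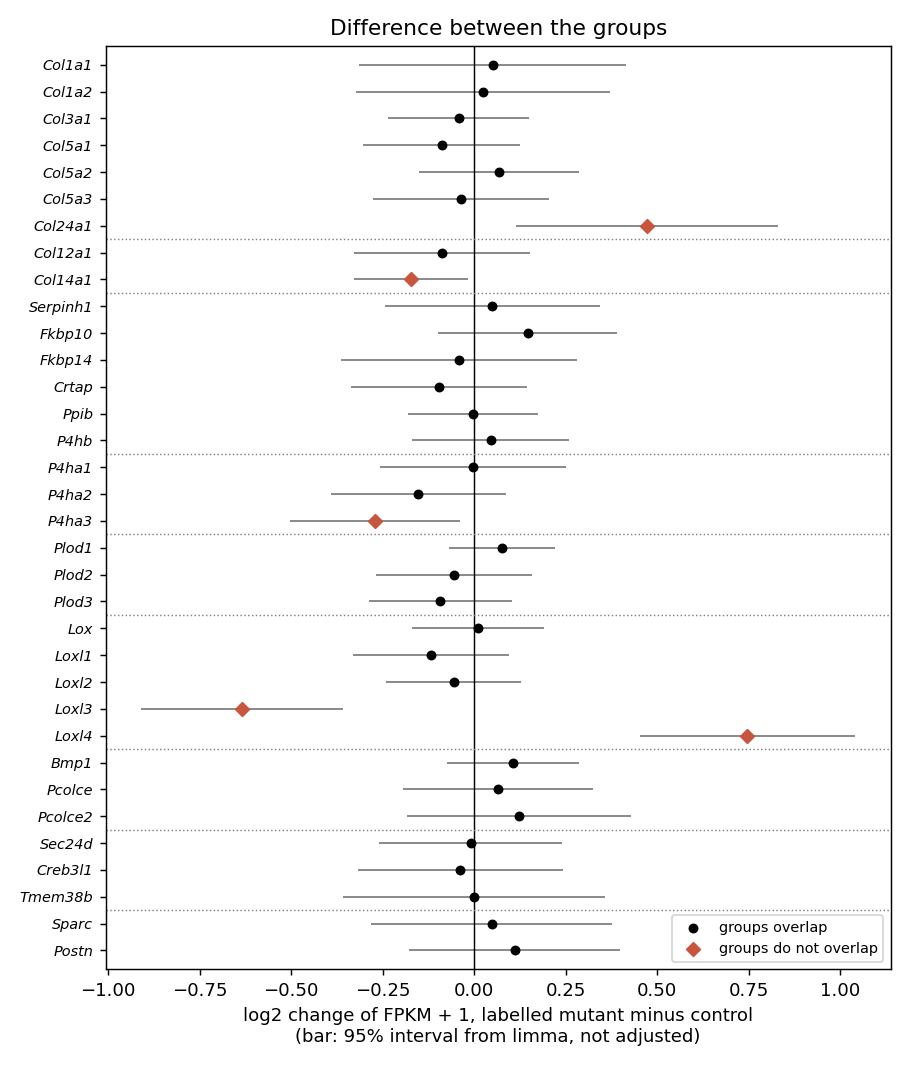
Difference between the groups for each of the 34 genes, as the log2 change of FPKM + 1 (horizontal axis) with its unadjusted 95% interval from limma, in groups by role. Red diamonds mark the 5 genes whose groups do not overlap, of which Loxl4 (0.75) lies farthest to the right and Loxl3 (-0.63) farthest to the left.

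The regions around the starts of 3 members are shown. They are Col1a2, whose level kept step with Col1a1, and Loxl4 and Col24a1, the members with higher values and groups apart. These regions come from RefSeq promoter windows on GRCm38.p6, which held 21 of the 34 members. The windows also held P4ha3, but no member with lower values and groups apart is shown. Each run gives 250 bases before the RefSeq start and 10 from it on, at chr6:4505368-4505627 (plus strand) for Col1a2, chr3:145292222-145292481 (plus strand) for Col24a1 and chr19:42612797-42613056 (minus strand) for Loxl4, 5′ to 3′. The RefSeq start of Col24a1 is also the outer start of its GENCODE gene, while those of Col1a2 and Loxl4 lie 804 and 7 bases inside theirs, so that the run of Col1a2 is within the longer GENCODE gene given below. Capitals mark letters of the motifs searched on both strands, namely the CCAAT box (CCAAT), the cyclic AMP response element (TGACGTCA), the GC box (GGGCGG) and the TATA box (TATAAA).
Col1a2: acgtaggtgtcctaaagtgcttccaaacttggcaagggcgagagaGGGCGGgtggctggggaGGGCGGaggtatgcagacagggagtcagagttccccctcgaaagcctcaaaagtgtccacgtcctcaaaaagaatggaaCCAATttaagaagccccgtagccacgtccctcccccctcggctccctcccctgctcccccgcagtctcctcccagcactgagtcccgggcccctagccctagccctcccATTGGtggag
Col24a1: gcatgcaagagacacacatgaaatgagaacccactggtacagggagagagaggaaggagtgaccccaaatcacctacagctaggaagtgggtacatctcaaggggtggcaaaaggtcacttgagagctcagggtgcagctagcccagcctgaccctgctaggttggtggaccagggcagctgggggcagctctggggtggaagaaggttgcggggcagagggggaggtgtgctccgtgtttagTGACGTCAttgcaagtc
Loxl4: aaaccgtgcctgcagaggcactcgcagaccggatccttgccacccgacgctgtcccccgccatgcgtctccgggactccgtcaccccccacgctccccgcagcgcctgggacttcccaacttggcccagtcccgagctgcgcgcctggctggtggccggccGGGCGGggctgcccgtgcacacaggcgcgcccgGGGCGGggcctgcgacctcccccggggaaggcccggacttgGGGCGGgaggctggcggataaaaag

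In Col1a2 a CCAAT box lay at positions -109 to -105 and a reversed copy at 1 to 5, counted with -1 as the last base before the RefSeq start, and GC boxes lay at -205 to -200 and -188 to -183. In Col24a1 the cyclic AMP response element spanned the start, from -7 to 1, and in Loxl4 there were 3 GC boxes, at -89 to -84, -56 to -51 and -15 to -10. Over the whole windows of 300 bases, 8 of the 21 members held a CCAAT box, against 37.4% of all 32851 windows. A member was counted when any of its windows held the motif, while the percentages count single windows. A GC box was found in 15 of the 21 (35.7% of all windows), a TATA box in 5 (13.6%) and the response element in 1, Col24a1 (1.79%). These matches describe the letters only.

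The chains of type I collagen were the most abundant of the members and did not differ between the groups beyond their spread. Col1a1, which encodes the alpha chain present in the larger number of copies, measured 9427, 10314 and 10866 FPKM in controls, against 9475, 9429 and 13131 FPKM in libraries labelled mutant. Col1a2, the partner chain, measured 7961, 8002 and 8777 FPKM in controls, against 7581, 7474 and 10362 FPKM in libraries labelled mutant. For both genes library 3 labelled mutant was the highest and the other two of its group lay beside or below the lowest control, so that the groups overlapped. The ratio of means was 1.05 for Col1a1 and 1.03 for Col1a2. Their 95% intervals ran from 0.805 to 1.33 and from 0.799 to 1.29 as folds of FPKM + 1 (limma, Benjamini-Hochberg adjusted p = 0.952 and 0.977). These unadjusted intervals reflect the spread between libraries in the FPKM as given. They do not cover the choice of scaling and are not a limit of detection. The sign of both log2 differences turned with quantile normalization, from 0.05 to -0.30 for Col1a1 and from 0.02 to -0.35 for Col1a2. Neither passed there, and median-of-ratios scaling left the differences at 0.05 and 0.02. Col1a1 was the most abundant gene of all in the 3 controls and in library 3 labelled mutant, and the third in the other libraries labelled mutant. In those libraries Col1a1 came after the globin genes Hba-a1 (11515 and 9783 FPKM) and Hbb-b1 (11790 and 12792 FPKM). It lies at positions 94936224 to 94953042 of chromosome 11 (plus strand, GRCm38) and Col1a2 at 4504814 to 4541544 of chromosome 6 (plus strand) in GENCODE, neither overlapping another protein-coding gene.

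The balance of the chains was steady. Per library, the FPKM of Col1a1 was 1.18, 1.29 and 1.24 times that of Col1a2 in controls and 1.25, 1.26 and 1.27 times in libraries labelled mutant. Together these 2 genes made up 3.02% to 4.32% of the summed FPKM of a library, and all 34 members 5.15% to 7.09%, with groups that overlapped in both.

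**Figure D2:**
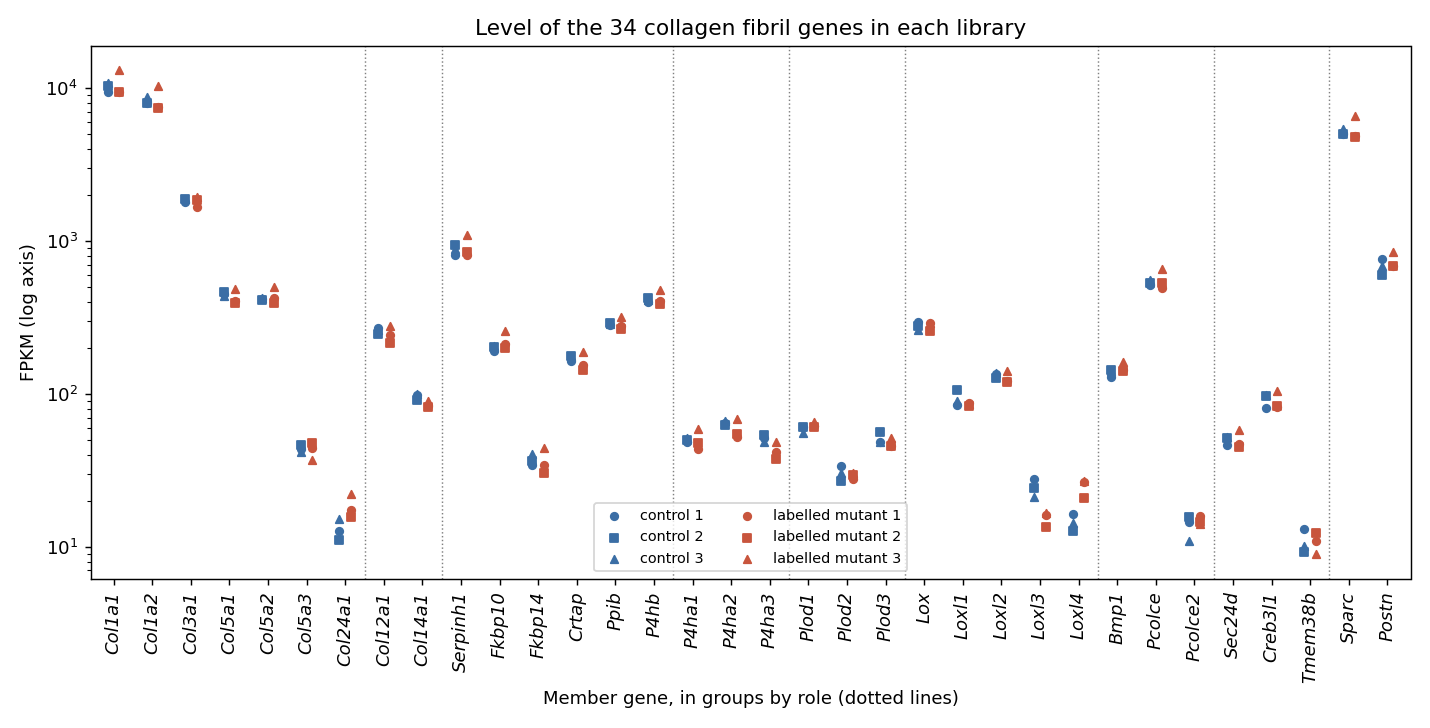
FPKM of each member (log axis) in the 3 control libraries (blue) and the 3 libraries labelled mutant (red), in groups by role. Levels span from 8.92 FPKM for Tmem38b to 13131 FPKM for Col1a1, both in library 3 labelled mutant, and for most genes red and blue points lie at the same height.

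The minor fibril collagens, which join type I collagen in mixed fibrils and set their diameter, mostly kept their levels as well. Col3a1, abundant in soft and vascular connective tissue, had 1868 ± 46.9 FPKM in controls and 1818 ± 136 in libraries labelled mutant (SD, n = 3 each). The type V chain genes Col5a1, Col5a2 and Col5a3 had ratios of 0.944, 1.05 and 0.980, and all overlapped between the groups.

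Col24a1, a fibrillar collagen gene known from bone-forming cells, stood apart from the other fibril chains. It measured 12.7, 11.1 and 15.2 FPKM in controls, against 17.4, 15.7 and 22.3 FPKM in libraries labelled mutant. Each library labelled mutant lay above each control, though library 2 (15.7) lay close to control 3 (15.2). The ratio of means was 1.42 and the log2 difference 0.47 ± 0.15 (SE; 95% interval 0.12 to 0.83), which did not pass (limma, Benjamini-Hochberg adjusted p = 0.297). Set against Col1a1 of the same library, Col24a1 had 0.134, 0.107 and 0.14 FPKM per 100 FPKM in controls. In libraries labelled mutant it had 0.183, 0.166 and 0.17, without overlap. This separation largely restates that of Col24a1 itself and is no further result.

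Fibril-associated collagens lie on the fibril surface. Col12a1, found in dense connective tissue and at bone surfaces, measured 271, 246 and 263 FPKM in controls, against 244, 214 and 280 FPKM in libraries labelled mutant. These overlapped, with a 95% interval of 0.796 to 1.11 as a fold of FPKM + 1. Col14a1, a relative found in soft connective tissue, measured 98.7, 90.7 and 99.4 FPKM in controls, against 83.2, 82.2 and 90.5 FPKM in libraries labelled mutant. The groups of Col14a1 were separated only by the gap between control 2 and library 3 labelled mutant, and its log2 difference of -0.17 ± 0.07 (SE; 95% interval -0.33 to -0.02) did not pass (limma, Benjamini-Hochberg adjusted p = 0.408).

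None of the chaperone and folding genes had groups apart, and all 6 were highest in library 3 labelled mutant. Serpinh1 encodes HSP47, the collagen-specific chaperone of the endoplasmic reticulum. It measured 814, 945 and 881 FPKM in controls, against 816, 844 and 1092 FPKM in libraries labelled mutant, which overlapped. Its 95% interval ran from 0.844 to 1.27 as a fold of FPKM + 1, and its level per 100 FPKM of Col1a1 from 8.11 to 9.17 over the 6 libraries. Fkbp10, a prolyl isomerase needed for crosslinking of bone collagen, had the smallest p of this group, with 191, 204 and 206 FPKM in controls against 211, 199 and 259 FPKM in libraries labelled mutant. Its ratio was 1.11, with a 95% interval of 0.934 to 1.31 as a fold of FPKM + 1 (limma, Benjamini-Hochberg adjusted p = 0.714). Crtap and Ppib, partners in the complex that 3-hydroxylates proline, had ratios of 0.940 and 1.00, and Fkbp14, another prolyl isomerase, had 0.981. P4hb, protein disulfide isomerase and the beta subunit of prolyl 4-hydroxylase, had 410 ± 11.7 and 425 ± 50.2 FPKM (SD, n = 3 each).

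Prolyl 4-hydroxylase stabilises the collagen helix, and its catalytic alpha subunits come from 3 genes. P4ha1 had a ratio of 1.01. P4ha2, the most abundant of the 3, measured 64.4, 62.6 and 66.8 FPKM in controls, against 52.4, 54.6 and 68.1 FPKM in libraries labelled mutant. Its groups overlapped because library 3 labelled mutant exceeded every control, and its 95% interval ran from 0.762 to 1.06 as a fold of FPKM + 1. P4ha3 measured 51.8, 53.7 and 48.8 FPKM in controls, against 41.7, 37.6 and 48.8 FPKM in libraries labelled mutant. Control 3 and library 3 labelled mutant were thus equal to 3 digits, and the groups of P4ha3 were barely apart. Its ratio was 0.830 and its log2 difference -0.27 ± 0.10 (SE; 95% interval -0.50 to -0.04; limma, Benjamini-Hochberg adjusted p = 0.379). The share of P4ha3 in the summed FPKM of the 3 subunits was 29.3% to 32.3% in controls and 26.9% to 30.2% in libraries labelled mutant, with overlap.

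Lysyl hydroxylases prepare the sites for glycosylation and crosslinking. Plod1, which acts mainly on the helical part of the chains, measured 60.6, 61.1 and 55.9 FPKM in controls, against 61.4, 60.6 and 65.3 FPKM in libraries labelled mutant, which overlapped (limma, Benjamini-Hochberg adjusted p = 0.766). Plod2, which hydroxylates the telopeptides, and Plod3, which also glycosylates, had ratios of 0.958 and 0.936. The 95% interval for Plod1 ran from 0.953 to 1.17 as a fold of FPKM + 1.

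The widest log2 differences of the 34 genes lay in the lysyl oxidase family, and they ran in opposite directions. Lox, the prototype enzyme and the most abundant of the 5, measured 295, 277 and 262 FPKM in controls, against 289, 258 and 293 FPKM in libraries labelled mutant, with overlap. Its ratio was 1.01, with a 95% interval of 0.889 to 1.14 as a fold of FPKM + 1. Loxl1, linked to elastic fibres, and Loxl2, which acts on type IV collagen among other substrates, had ratios of 0.916 and 0.964.

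Loxl4 measured 16.3, 12.7 and 14.3 FPKM in controls, against 26.7, 21.0 and 27.0 FPKM in libraries labelled mutant. Its groups were apart, the lowest library labelled mutant (21.0) lying above the highest control (16.3). The ratio of means was 1.73 and the log2 difference 0.75 ± 0.12 (SE; 95% interval 0.45 to 1.04), with an adjusted p of 0.065 that missed the threshold (limma, Benjamini-Hochberg). It passed in 2 of 15 other settings, robust eBayes (adjusted p = 0.0497) and array weights (0.0219), and its adjusted p ran up to 0.223 over all of them. The gene spans positions 42593982 to 42612813 of chromosome 19 (minus strand, GRCm38) and overlaps no other annotated gene.

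Loxl3, whose loss in mice is known to cause cleft palate and spinal defects, went the other way. It measured 27.9, 24.2 and 21.2 FPKM in controls, against 16.0, 13.5 and 16.6 FPKM in libraries labelled mutant, so that every control exceeded every library labelled mutant. The ratio of means was 0.629 and the log2 difference -0.63 ± 0.12 (SE; 95% interval -0.91 to -0.36; limma, Benjamini-Hochberg adjusted p = 0.0936), and it passed in none of the 15 other settings (adjusted p from 0.0679 to 0.243). Loxl3 spans positions 83034173 to 83052562 of chromosome 6 (plus strand) and overlaps Htra2 on the minus strand. Htra2 had 31.8 ± 0.774 FPKM in controls and 28.9 ± 0.534 FPKM in libraries labelled mutant (SD, n = 3 each). It was thus also lower with groups apart (ratio 0.908), and did not pass (limma, Benjamini-Hochberg adjusted p = 0.412). The kit kept strand, but whether the authors' counting used it is not stated in what was at hand, so reads of these 2 genes may have been shared.

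The ratio of these 2 genes was formed after their values were seen and pairs the members that differed most in opposite directions, so its separation restates theirs and is no further result. The ratio of Loxl4 to Loxl3 was 0.585, 0.523 and 0.674 in controls and 1.66, 1.56 and 1.63 in libraries labelled mutant. The summed FPKM of the family overlapped between the groups (523 to 558 and 497 to 563), since these 2 genes are its least abundant members. Loxl4 made up 2.32% to 2.92% of that sum in controls and 4.22% to 4.94% in libraries labelled mutant, and Loxl3 4.05% to 4.99% and 2.71% to 2.97%. In bulk tissue, fewer cells of a type and less RNA per cell cannot be told apart. The marker sums of osteoblasts, chondrocytes, osteoclasts and endothelium given above were apart between the same groups, and their part in the values of Loxl3, Loxl4 and Col24a1 was not tested.

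**Figure D3:**
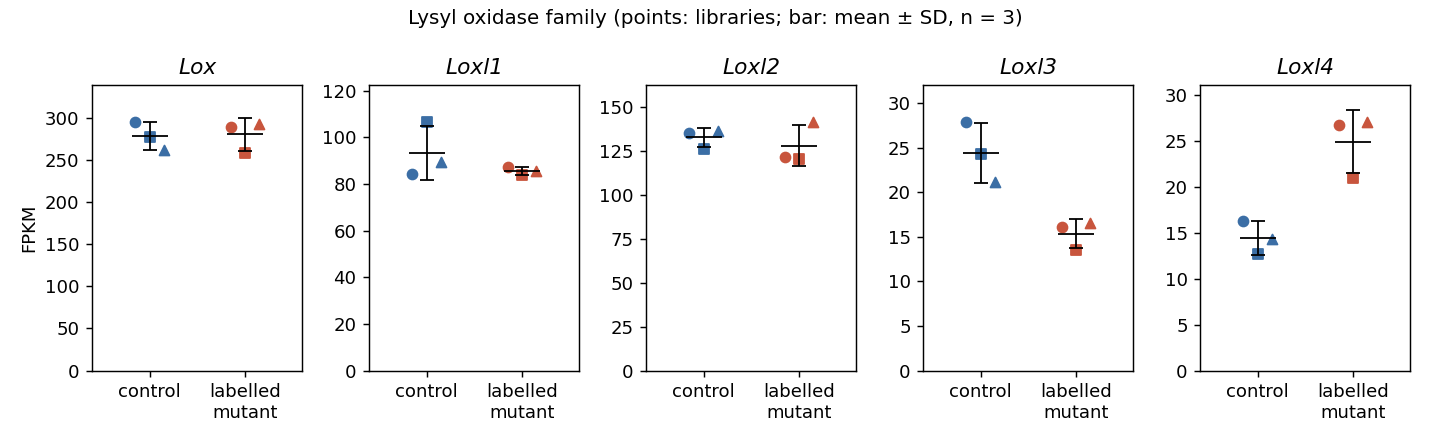
FPKM of the 5 lysyl oxidase genes (each panel has its own axis from 0) in controls (blue) and libraries labelled mutant (red), with the mean ± SD of n = 3. Lox, Loxl1 and Loxl2 overlap between the groups, while Loxl3 is lower and Loxl4 higher in each library labelled mutant.

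Outside the cell, Bmp1 encodes the protease that removes the carboxyl propeptide and also activates lysyl oxidase. It measured 130, 144 and 142 FPKM in controls, against 144, 142 and 162 FPKM in libraries labelled mutant, which overlapped (ratio 1.08, 95% interval 0.950 to 1.22 as a fold of FPKM + 1; limma, Benjamini-Hochberg adjusted p = 0.721). Pcolce, an enhancer of this cleavage, measured 515, 530 and 555 FPKM in controls, against 494, 535 and 658 FPKM in libraries labelled mutant. Its range in the libraries labelled mutant enclosed that of the controls, and its 95% interval ran from 0.874 to 1.25 as a fold of FPKM + 1. Pcolce2, a second enhancer, had a ratio of 1.08.

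For export, Sec24d, a coat subunit of the vesicles that carry procollagen, had a ratio of 0.998. Creb3l1, a membrane-bound transcription factor that induces type I collagen genes in osteoblasts, measured 81.2, 97.3 and 98.9 FPKM in controls, against 82.0, 84.0 and 105 FPKM in libraries labelled mutant. These values overlapped (ratio 0.976, 95% interval 0.802 to 1.18 as a fold of FPKM + 1; limma, Benjamini-Hochberg adjusted p = 0.954). Tmem38b, an ion channel of the endoplasmic reticulum, had the lowest level of the 34 genes, with 10.8 ± 2.03 and 10.7 ± 1.73 FPKM (SD, n = 3 each).

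Among the matricellular proteins, Sparc, the collagen-binding osteonectin of bone matrix, was the seventh most abundant gene of all by its mean. It measured 5049, 5048 and 5436 FPKM in controls, against 4871, 4768 and 6582 FPKM in libraries labelled mutant, with overlap. Its 95% interval ran from 0.823 to 1.30 as a fold of FPKM + 1, and its level per 100 FPKM of Col1a1 from 48.9 to 53.6. Postn, periostin of the periosteum, measured 765, 602 and 692 FPKM in controls, against 683, 690 and 851 FPKM in libraries labelled mutant (ratio 1.08, 95% interval 0.883 to 1.32 as a fold of FPKM + 1; limma, Benjamini-Hochberg adjusted p = 0.843).

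Library 3 labelled mutant stood apart from the rest of its group. It held the highest value of 24 of the 34 members, or 70.6%, where it was the highest library for 22.0% of all tested genes. Library 2 labelled mutant held the lowest value of 17 members, and the matching share over all tested genes was not computed. The median deviation of the members from their control means was 0.14 on the log2 scale in library 3, against -0.10 and -0.11 in libraries 1 and 2 of that group. The same library had the highest summed osteoblast markers (6437 FPKM, against 3416 to 5536 elsewhere), with 7 of the 9 genes highest there. It also had the lowest summed muscle markers (8833 FPKM, against 10340 to 16860 elsewhere), the lowest summed red cell markers (5107 FPKM, against 9111 to 23736) and the lowest relative depth (0.703). The part of these in its high collagen values was not tested. Without library 3 labelled mutant the log2 difference was -0.11 for Col1a1 and -0.13 for Col1a2, and neither passed (limma, Benjamini-Hochberg adjusted p = 0.799 and 0.701).

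**Figure D4:**
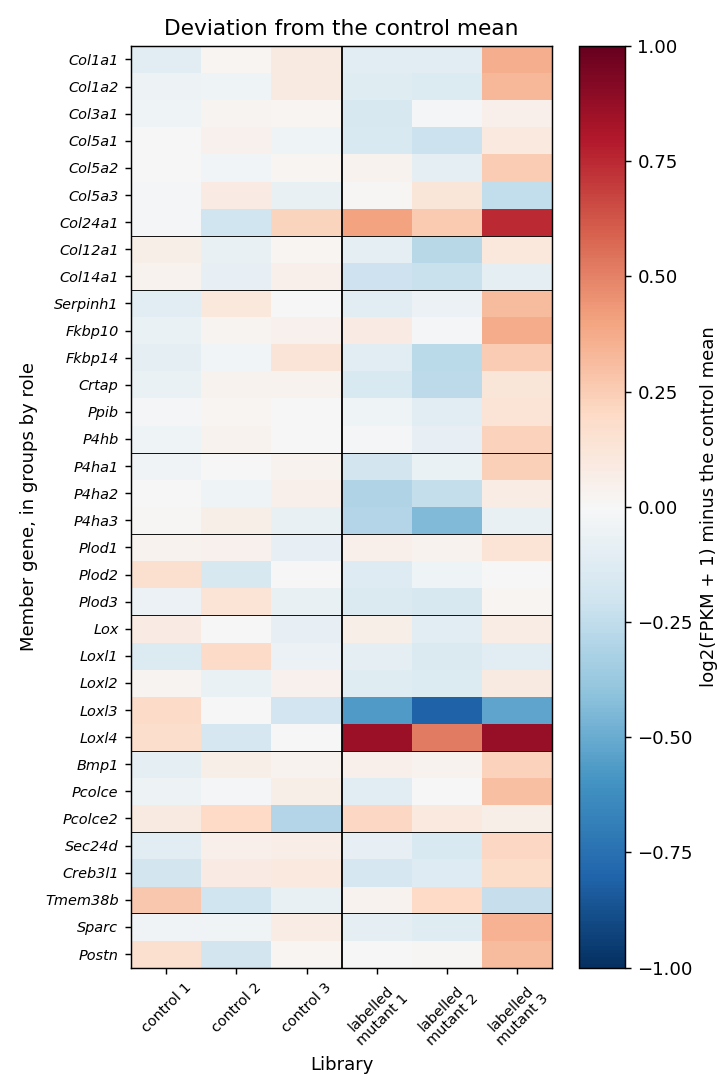
Deviation of each member from its control mean in each library, as log2(FPKM + 1) on a colour scale from -1 (blue) to 1 (red), with genes in groups by role. Library 3 labelled mutant is red for most rows, while Loxl4 and Col24a1 are red and Loxl3 is blue in all 3 libraries labelled mutant.

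Other genes of collagen biosynthesis, from a list of 29 names with 28 tested, had none past the threshold (limma with Benjamini-Hochberg adjustment; 2 higher and 1 lower at an unadjusted p under 0.05), with a median log2 difference of -0.01. The list takes in prolyl 3-hydroxylases, galactosyltransferases, propeptide proteases, export factors and further brittle bone genes. Its most abundant gene, Serpinf1 (pigment epithelium-derived factor), had 756 ± 50.2 and 717 ± 139 FPKM (SD, n = 3 each). Mbtps2, the protease that releases Creb3l1 from its membrane, had the smallest p. It measured 4.04, 3.56 and 4.39 FPKM in controls, against 5.01, 5.16 and 5.20 FPKM in libraries labelled mutant, which did not overlap (ratio 1.28; limma, Benjamini-Hochberg adjusted p = 0.240).

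Of 20 genes for proteins that bind or decorate the fibril, 16 had a log2 difference below 0, against 49.5% of all tested genes, with a median of -0.13, but none passed (limma with Benjamini-Hochberg adjustment; 1 higher and 3 lower at an unadjusted p under 0.05). Bgn, biglycan, was the most abundant, with 1173 ± 15.2 and 1072 ± 186 FPKM (SD, n = 3 each). Prelp, a leucine-rich repeat protein that anchors collagen to basement membranes, had the smallest p, with 34.7, 40.1 and 31.6 FPKM in controls against 24.3, 23.2 and 26.1 FPKM in libraries labelled mutant. Its groups did not overlap, and the ratio was 0.692 (limma, Benjamini-Hochberg adjusted p = 0.0947). Among collagen receptors and uptake genes, 0 of 7 tested passed (limma with Benjamini-Hochberg adjustment; 0 higher and 1 lower at an unadjusted p under 0.05). The most abundant, the integrin gene Itgb1, had a ratio of 1.01, while the collagen receptor kinase Ddr1 had the smallest p, with 21.4 ± 4.15 and 14.9 ± 1.13 FPKM (SD, n = 3 each; limma, Benjamini-Hochberg adjusted p = 0.233).

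Among enzymes that degrade collagen, 3 of 6 tested rose and none fell, and the difference from the other lists was not tested. At an unadjusted p under 0.05 there were 4 higher and 0 lower (limma). Ctsk and Mmp9 are also on the osteoclast marker list, whose sums are given above. Ctsk, cathepsin K, which digests collagen under osteoclasts, was the most abundant and had the smallest p. It went from 352, 346 and 355 FPKM to 780, 731 and 813 FPKM, groups far apart, with a log2 difference of 1.14 ± 0.06 (SE; limma, Benjamini-Hochberg adjusted p = 0.00112). Mmp9 and Mmp13, a gelatinase and a collagenase, also rose, by ratios of 3.52 and 2.61. Fap was also higher with groups apart and at an unadjusted p under 0.05, with a ratio of 1.23. It did not pass (limma, Benjamini-Hochberg adjusted p = 0.463). Mmp14 and Mmp2, which fibroblasts and osteoblasts also make, missed the threshold, with ratios of 1.04 and 0.887. Per 100 FPKM of Col1a1, Ctsk had 3.27 to 3.74 FPKM in controls and 6.19 to 8.24 in libraries labelled mutant.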

How the data were processed

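Libraries were made with a stranded mRNA kit from calvaria, 3 control and 3 labelled mutant, grouped and numbered by title. The deposited FPKM were made by the authors, and the submitters' processing notes name Cufflinks 2.2.1, TopHat2 2.0.13, SAMtools 0.1.19 and Bowtie2 2.2.3, with mm10. FPKM depends on the most abundant genes of a library, and Cufflinks assigns ambiguous fragments by a model.

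Across the 13180 genes whose mean reached 1 FPKM, log2(FPKM + 1) was compared using limma 3.58.1 (R 4.3.3; eBayes with trend, group as the only term, two-sided, Benjamini-Hochberg adjustment at 0.05). Log2 changes understate changes of low genes; ratios are of mean FPKM. The fit was tested on simulated data. The members and lists were chosen with earlier results of these data known. Values per library and intervals are given for Col1a1, Col1a2 and, in each role group, the most abundant member and that with the smallest p; in other lists, these 2 and all genes past the threshold are named. Loxl3, Col24a1, P4ha3, Col14a1, Mmp2, Mmp14, Fap, Krt10 and Dsp were described further after their values were seen. Gene coordinates are from GENCODE M21 (GRCm38). Other settings changed the pseudocount (to 0.1), the filter (none, or 5 FPKM), the scaling (quantile, or median of ratios), the moderation (robust, or with no trend), the weights of libraries and the replicate block, or left out a library.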

Additional observations from a re-analysis of the deposited data

How the results depend on the processing

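In 15 other settings, no member other than Loxl4 passed. The count of members that rose went from 0 to 1 with robust eBayes and to 1 with array weights, and 0 fell in any setting. Loxl3, Loxl4, Col24a1, P4ha3 and Col14a1 kept their direction throughout. Over all genes, 69 rose and 11 fell. Without a filter these became 44 and 6, and with array weights 152 and 31. They ran from 15 to 34 and from 1 to 12 when 1 library was left out; leaving out any of the 6 lowered the risers by over 1.5 times, most without library 1 labelled mutant (15 and 1). With the replicate number as a block they were 23 and 2. The labels give same-numbered libraries nothing in common beyond the number. Correlations of their deviations were 0.016, -0.071 and 0.015, which with 3 libraries a group cannot exclude a pairing. Of the 34 members, 19 changed sign in some setting. Quantile normalization gave -0.30 for Col1a1, -0.35 for Col1a2, -0.034 for Serpinh1 and -0.18 for Sparc, and the cause was not tested. Array weights gave -0.058 for Col1a1, -0.082 for Col1a2, 0.023 for Col5a3, -0.023 for Serpinh1, -0.039 for Pcolce, 0.036 for Tmem38b and -0.047 for Sparc, and the cause was not tested. Leaving out 1 library gave log2 differences of -0.11 to 0.13 for Col1a1, -0.13 to 0.11 for Col1a2, -0.088 to 0.019 for Col3a1, -0.026 to 0.15 for Col5a2, -0.12 to 0.069 for Col5a3, -0.18 to 0.0070 for Col12a1, -0.082 to 0.13 for Serpinh1, -0.19 to 0.074 for Fkbp14, -0.074 to 0.047 for Ppib, -0.049 to 0.11 for P4hb, -0.12 to 0.087 for P4ha1, -0.14 to 0.026 for Plod2, -0.031 to 0.068 for Lox, -0.053 to 0.15 for Pcolce, -0.025 to 0.22 for Pcolce2, -0.12 to 0.063 for Sec24d, -0.15 to 0.027 for Creb3l1, -0.10 to 0.13 for Tmem38b and -0.10 to 0.13 for Sparc. Absolute depth is unknown, so 3 libraries a group set the precision.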

Other observations

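For 3 bone matrix genes, picked after their values were seen, the level relative to Col1a1 was apart between the groups. Ibsp, the bone sialoprotein gene, had 9.96, 8.06 and 8.78 FPKM per 100 FPKM of Col1a1 in controls and 18.8, 15.7 and 15.3 in libraries labelled mutant. The osteocalcin genes Bglap and Bglap2, whose near-identical reads cannot be cleanly parted, together had 2.10, 2.22 and 3.80 in controls and 0.785, 1.38 and 0.892 in libraries labelled mutant. Both quantities had groups that did not overlap, in opposite directions, and neither of these ratios to Col1a1 was tested. As single genes, Ibsp rose (limma, Benjamini-Hochberg adjusted p = 0.0306), while Bglap and Bglap2 did not pass (adjusted p = 0.217 and 0.125).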
